A study of Mus musculus with 2 samples.

Results

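Ttr, Folr1, Kl, Kcnj13, Enpp2 and Clic6 are genes whose RNA is abundant in the choroid plexus, and they were followed here across a pair of coronal mouse brain sections by their distance from the spots richest in Ttr. The set was chosen by symbol and holds 6 of the 32285 genes counted. Spatial transcriptomics (Visium, in which polyadenylated RNA of a tissue section is captured on an array of barcoded spots, each spot a small region that can hold several cells) was performed on 1 section labelled trained and 1 section labelled untrained, each with the dorsal hippocampus of both sides. Both mice were adult males of the ArcCreERT2::eYFPflx genotype on a C57BL/6 background, aged 3 to 4 months, in which a tamoxifen-inducible Cre recombinase driven by Arc can switch on eYFP. In active place avoidance, a rotating arena carries the mouse toward a sector that delivers a foot shock, and the mouse must keep away from it. The trained mouse had been shocked in the zone on its training days, the untrained mouse had not, and brains were taken after a retention test that both received with the shock off. With n = 1 section per label, mouse and label cannot be told apart, no test between the labels was possible, and every interval below is a 95% interval that covers counting error only. Directions are those of the labels as deposited. Those labels may be swapped against the study's own naming of the mice, which was not tested here, and every direction between the sections would turn if they were.

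The choroid plexus is a folded sheet of epithelial cells around vessels that hangs in the ventricles of the brain and secretes cerebrospinal fluid. Ttr encodes transthyretin, the protein that plexus cells release into that fluid and that carries thyroxine and, through retinol-binding protein, retinol. Folr1 encodes folate receptor alpha, through which folate reaches the fluid, and Kcnj13 encodes the potassium channel Kir7.1. Clic6 encodes a member of the chloride intracellular channel family. Kl encodes klotho, a co-receptor for the hormone FGF23, and Enpp2 encodes autotaxin, the secreted enzyme that makes lysophosphatidic acid. Klotho is also made by neurons and autotaxin by oligodendrocytes, so that these genes have known sources outside the plexus.

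Promoter sequence was at hand for Kl and Kcnj13, 2 of the 6 genes, and is shown because both genes were high in the plexus and low elsewhere. The 250 bases before each RefSeq start (build GRCm38.p6) are given 5′ to 3′ on the strand of the gene, for Kl at chr5:150952357-150952606 on the plus strand and for Kcnj13 at chr1:87394730-87394979 on the minus strand. No base is in capitals, since the motif searched for, TAATCC (the letters bound by OTX-type homeobox factors, read on both strands), was in neither window. Of 32851 RefSeq promoter windows, 2054 (6.25%) hold these letters, and nothing about the factor follows from a window without them. The windows differed in base composition, with a GC content of 66.8% for Kl and 45.2% for Kcnj13.
Kl: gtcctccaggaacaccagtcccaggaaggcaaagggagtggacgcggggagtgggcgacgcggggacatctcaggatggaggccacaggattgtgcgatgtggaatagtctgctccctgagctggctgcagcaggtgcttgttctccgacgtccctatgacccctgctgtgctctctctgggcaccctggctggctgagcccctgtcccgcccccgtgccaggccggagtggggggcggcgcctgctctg
Kcnj13: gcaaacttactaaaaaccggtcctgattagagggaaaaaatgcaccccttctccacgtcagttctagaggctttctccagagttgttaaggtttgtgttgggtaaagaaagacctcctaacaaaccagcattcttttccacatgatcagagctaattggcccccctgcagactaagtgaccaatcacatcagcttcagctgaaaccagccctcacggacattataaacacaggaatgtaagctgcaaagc

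Plexus core spots were defined as spots with at least 500 UMIs (unique molecular identifiers, each an RNA molecule counted once) in which Ttr reached at least 20000 counts per 1000000 UMIs (CPM). The section labelled trained held 4152 spots, 29515831 UMIs and a median of 5950.5 UMIs per spot, and 126 of its spots were core. The section labelled untrained held 3738 spots, 59029131 UMIs and a median of 13766.5, and 192 of its spots were core. Ttr chose these spots, so its level in them is a description. The spot with the most Ttr gave it 34.2% of its UMIs in the trained-labelled section and 31.3% in the untrained-labelled section. The core spots nearest the threshold had 20735 and 20071 CPM, and the spots just outside it had 19952 and 19562 CPM. Plexus reference markers that the rule did not use were high in the same spots: all 14 of them with a row were higher in the core than away from it in both sections, and their sum was 1897 CPM in the core against 29.6 CPM in far spots in the trained-labelled section, and 3582 against 89.0 CPM in the untrained-labelled section. The core was not pure plexus. All 7 markers of ependyma, the ciliated lining of the ventricles, were also higher in it. Their sum was 565 against 45.2 CPM and 946 against 51.3 CPM. All 9 myelin genes and all 6 meninges genes were higher in it in both sections. The sum of the striatum list was higher too, at 985 against 89.2 CPM and 335 against 68.2 CPM.

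Positions are given on GRCm38/mm10 as annotated in GENCODE vM21. Ttr (ENSMUSG00000061808) lies on chromosome 18 from 20665280 to 20674321 with 4 exons, and Kl (ENSMUSG00000058488) on chromosome 5 from 150952607 to 150993817 with 3 exons, and neither overlaps another gene. Folr1 (ENSMUSG00000001827, chromosome 7, 101858331 to 101870788, 7 exons) overlaps Anapc15 on the opposite strand. Kcnj13 (ENSMUSG00000079436, chromosome 1, 87386363 to 87394729, 3 exons) overlaps Gigyf2, Enpp2 (ENSMUSG00000022425, chromosome 15, 54838901 to 54952892, 25 exons) overlaps Gm26684, each on the opposite strand, and Clic6 (ENSMUSG00000022949, chromosome 16, 92485736 to 92541243, 6 exons) overlaps 2410124H12Rik on its own strand. The sources used here do not say that counting used strand, so reads of these neighbours cannot be fully told apart. Anapc15 and Gigyf2 did not follow the plexus, with log2 ratios of core over far spots of -0.52 (-1.19 to 0.027) and -0.064 (-0.64 to 0.42) in the trained-labelled section and -0.23 (-0.56 to 0.076) and -0.46 (-0.80 to -0.15) in the untrained-labelled section. Gm26684 did follow it, with 10 core and 11 far UMIs in the trained-labelled section and 54 and 30 in the untrained-labelled section, which are few beside the 5193 and 45885 Enpp2 UMIs in the core.

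**Figure D1:**
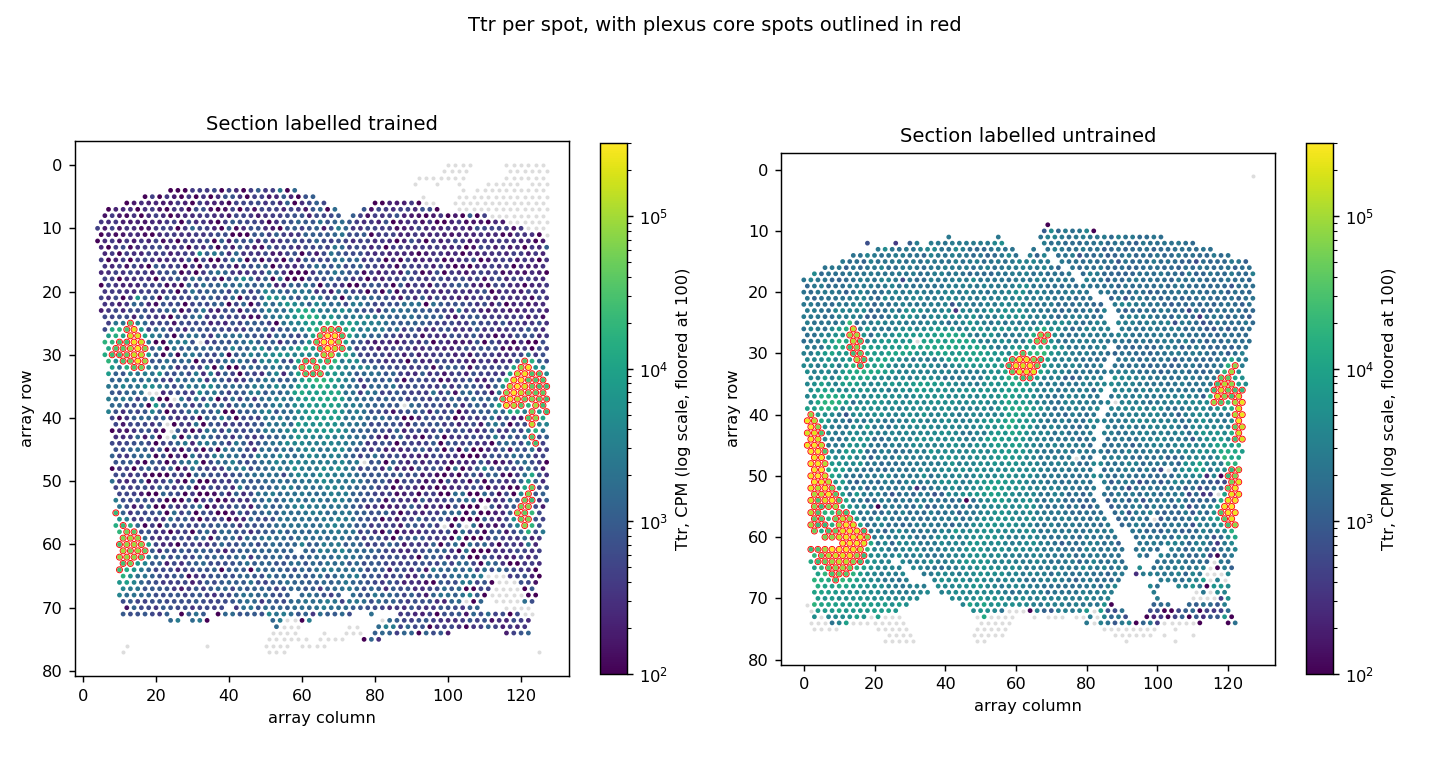
Ttr in each spot of both sections, plotted by array column and array row, with colour for CPM on a log scale floored at 100, core spots outlined in red and spots under 500 UMIs in grey. Core spots formed patches near both side edges and in the middle columns of each section, and Ttr in far spots was highest in columns 48 to 79 of the trained-labelled section and in columns 16 to 63 of the untrained-labelled section.

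The first question was how the core varied within itself. Core spots joined into 6 patches of at least 5 touching spots in the trained-labelled section (7 to 41 spots each) and 5 in the untrained-labelled section (12 to 109 spots), and 3 and 4 core spots lay in smaller groups. As the map of Ttr shows, patches sat near both side edges and in the middle. Kl varied relative to Ttr. It ran from 1.71 (0.466 to 4.39) to 5.16 (4.59 to 5.78) UMIs per 1000 Ttr UMIs over the patches in the trained-labelled section, and from 1.50 (0.777 to 2.63) to 3.58 (3.42 to 3.74) in the untrained-labelled section. The patches with little Kl per Ttr were also those with the least Ttr: the 3 patches of the trained-labelled section at 1.71, 1.89 and 2.02 had 40734, 55361 and 61561 CPM of Ttr, whereas the other 3 had 119869 to 152371 CPM. Enpp2 varied less, from 35.0 to 44.1 per 1000 Ttr UMIs in the trained-labelled section and from 39.1 to 58.9 in the untrained-labelled section. Kcnj13 ran from 0.577 to 1.51 and from 0.952 to 1.58, and Clic6 from 1.28 to 3.56 and from 3.13 to 4.52. Folr1 ran from 0.567 to 1.71 in the trained-labelled section and from 1.63 to 2.97 in the untrained-labelled section. The highest value of the first section rested on 4 Folr1 UMIs (0.466 to 4.39). The lowest of the second rested on 13 (0.867 to 2.79), and intervals of patches overlapped between the sections.

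The second question was how far each gene stood above the rest of the section. Far spots were those more than 5 steps from the nearest core spot on the hexagonal grid, a step being the distance between neighbouring spots, and numbered 3332 in the trained-labelled section and 2762 in the untrained-labelled section. Of the 6 genes, 4 had the 200 UMIs asked for in the trained-labelled section, and all 4 were at least 2-fold higher in the core than far from it, as were 3.66% of the 10032 genes compared. In the untrained-labelled section all 6 were, against 8.54% of 11565 genes. Since Ttr chose the core and its partners share that tissue, nothing beyond these levels is read from the counts. The median log2 ratio was 5.64 over the 4 genes and 5.41 over the 6 genes, against -0.20 and -0.34 over all genes.

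Ttr fell from 102587 CPM in the core (127322 UMIs) to 752 CPM in far spots (17486 UMIs) in the trained-labelled section, and from 168503 CPM (889315 UMIs) to 2712 CPM (113675 UMIs) in the untrained-labelled section. The core was thus 136-fold and 62.1-fold above the far spots. Kcnj13 went from 97.5 to 0.861 CPM (121 and 20 UMIs) and from 232 to 4.51 CPM (1225 and 189 UMIs). Of the 6 genes, these 2 kept the least of their core level far away, 0.733% and 1.61% for Ttr and 0.883% and 1.94% for Kcnj13.

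Folr1 went from 105 CPM (87.5 to 124) in the core to 1.59 CPM (1.12 to 2.19) far from it in the trained-labelled section, and from 471 to 15.7 CPM in the untrained-labelled section. Kl went from 449 (412 to 488) to 7.70 CPM (6.62 to 8.92) and from 565 (545 to 586) to 12.4 CPM (11.4 to 13.5). Clic6 went from 306 to 7.19 CPM and from 732 to 18.5 CPM. The far level of these genes was between 1.52% and 3.32% of the core level in every case. Enpp2 went from 4184 (4071 to 4300) to 162 CPM (157 to 167) and from 8694 (8615 to 8774) to 291 CPM (286 to 296), and its 3.87% was the highest of the 6 genes in the trained-labelled section, whereas Enpp2 with 3.35% and Folr1 with 3.32% stood side by side in the untrained-labelled section. The far level of the plexus reference genes was 1.83% of the core level (median of 4 genes with enough UMIs, 1.004% to 3.08%) and 2.42% (median of 14, 1.37% to 5.10%).

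As a share of all its UMIs in a section, Ttr in far spots was 11.1% (10.9 to 11.2%) in the trained-labelled section and 10.7% (10.6 to 10.7%) in the untrained-labelled section. How close these shares were depended on the core: they were 9.87% and 8.21% with the core at 10000 CPM, 12.4% and 14.1% with a core of 50 spots and 7.24% and 8.25% with a core from the reference list, and 7.78% and 6.78% with far spots from more than 10 steps. Folr1 with 18.6% (13.4 to 24.7%) and 19.0% (17.7 to 20.3%) and Kcnj13 with 12.6% (7.86 to 18.8%) and 12.5% (10.9 to 14.3%) were also alike in the sections within their intervals. Enpp2 had 35.4% (34.5 to 36.4%) and 19.0% (18.7 to 19.3%), Clic6 26.3% (22.9 to 29.9%) and 15.5% (14.5 to 16.5%), and Kl 21.9% (19.1 to 24.9%) and 13.7% (12.6 to 14.8%). A larger part of the UMIs of these genes lay in far spots in the trained-labelled section, and the intervals do not overlap. The sizes moved with the core and the distance: over the alternatives Enpp2 ran from 24.8% to 40.1% and from 11.8% to 24.0%, Clic6 from 15.4% to 29.7% and from 11.04% to 19.7%, and Kl from 13.7% to 23.9% and from 8.47% to 18.1%. Within each alternative, these 3 genes had the larger share in the trained-labelled section with intervals that did not overlap. Folr1 ran from 9.55% to 22.6% and from 11.4% to 24.0%, and Kcnj13 from 7.55% to 14.5% and from 8.19% to 15.98%. Far spots held 78.7% and 71.0% of all UMIs and core spots 4.20% and 8.94%. A far share thus also depends on how much plexus a section holds. The far levels of Enpp2, Clic6 and Kl in CPM were lower in the trained-labelled section.

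**Figure D2:**
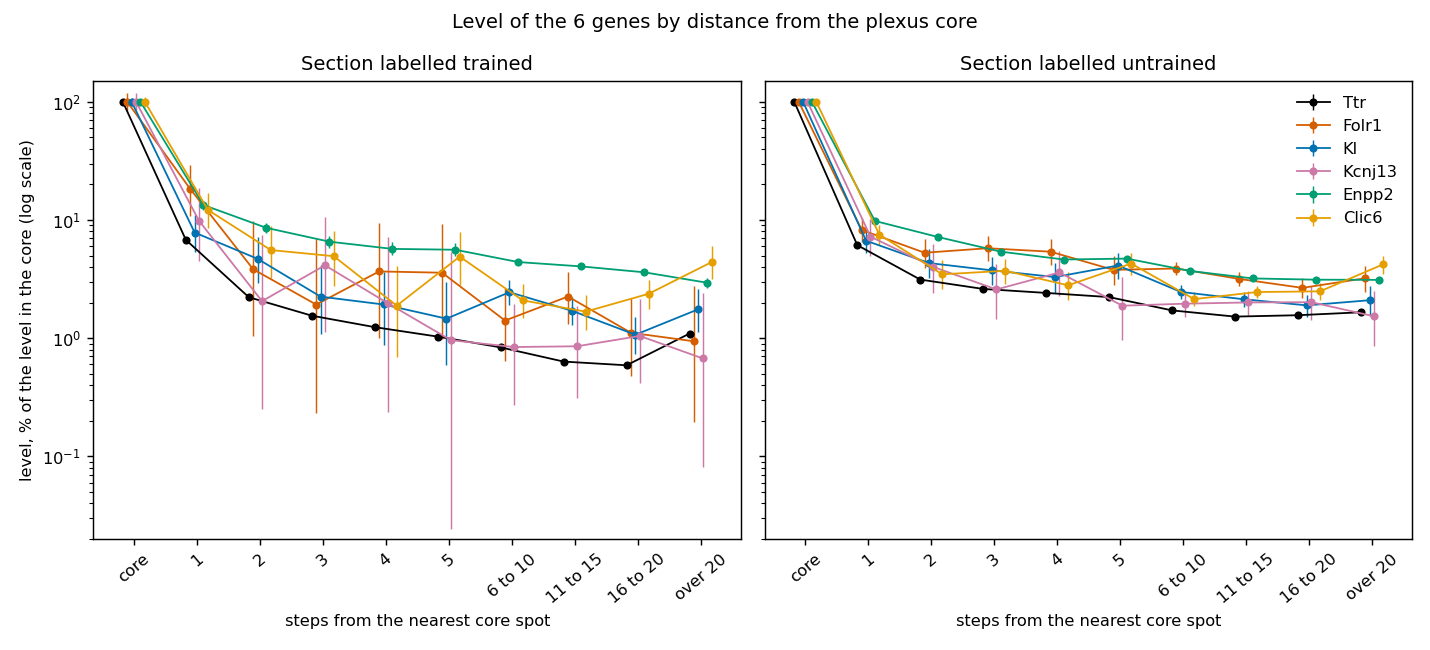
Level of each of the 6 genes, as a percentage of its level in the core on a log scale, by steps from the nearest core spot in each section, with bars for the 95% counting interval. All 6 genes dropped steeply within the first steps, and Ttr stood at 6.79% and 6.13% of its core level at 1 step and at 1.09% and 1.66% beyond 20 steps, with the level at 1 step dependent on where the core ended.

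The third question was how the level fell with distance. Ttr at 1 step from the core was 6969 CPM, 6.79% of the core level, in the trained-labelled section and 10324 CPM, 6.13%, in the untrained-labelled section. The level at 1 step depended on where the core ended, and ran from 3627 CPM with the core at 10000 CPM to 26177 CPM with a core of 50 spots in the trained-labelled section and from 5996 to 116255 CPM in the untrained-labelled section. At 2 steps it was 2278 and 5275 CPM, and at 5 steps 1057 and 3750 CPM. The steep part of the fall was over by then. From 6 to 20 steps Ttr stood at 857, 650 and 604 CPM (6 to 10, 11 to 15 and 16 to 20 steps) in the trained-labelled section and at 2893, 2564 and 2634 CPM in the untrained-labelled section. Beyond 20 steps it was 1121 CPM (1084 to 1159) in the trained-labelled section, higher than at 6 to 20 steps, and 2789 CPM (2739 to 2840) in the untrained-labelled section. Ttr RNA was thus counted at every distance in both sections.

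Among far spots with at least 500 UMIs, 92.6% in the trained-labelled section and 99.4% in the untrained-labelled section had a Ttr UMI. Depth differed between the sections (medians over far spots of 5766.5 and 13766.5 UMIs), and with each spot thinned to 1000 UMIs the share of far spots with a Ttr UMI was 50.4% and 90.2%, against 87.8% and 97.1% of all far spots before thinning. Thinned shares at 6 to 10 steps were 51.9% and 91.4%, with 29 and 41 shallower spots left out, and those at 16 to 20 steps 45.6% and 88.6%, with 5 and 16 left out. Beyond 20 steps they were 61.4% and 92.0%, higher than in the 3 rings from 6 to 20 steps in both sections, with 157 of 552 and 60 of 326 spots left out. No tissue in these sections is known to be free of Ttr, so no background share of spots could be set beside these.

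The other genes dropped in the same steps. Folr1 at 1 step was 19.2 CPM (18 UMIs) and 38.8 CPM (74 UMIs), 18.3% and 8.23% of its core level. Kcnj13 was 9.58 CPM (9 UMIs) and 16.8 CPM (32 UMIs), or 9.83% and 7.23%. Kl was 35.1 and 37.7 CPM, or 7.83% and 6.68%. Clic6 was 37.3 and 55.04 CPM, or 12.2% and 7.52%, and Enpp2 was 560 and 853 CPM, or 13.4% and 9.82%. Clic6 was higher beyond 20 steps than at 16 to 20 steps in both sections, with intervals that did not overlap: it was 6.39, 5.13 and 7.27 CPM (5.39 to 9.58 for the last) from 6 to 20 steps and 13.5 CPM (9.66 to 18.3) beyond 20 steps in the trained-labelled section, and 15.7, 17.96 and 18.2 CPM (15.4 to 21.4 for the last) and then 30.8 CPM (25.7 to 36.6) in the untrained-labelled section. Enpp2 was 184 CPM (174 to 195) at 6 to 10 steps and 123 CPM (111 to 136) beyond 20 steps in the trained-labelled section. Its level in the untrained-labelled section was 322 CPM at 6 to 10 steps and 278, 272 and 271 CPM from there outward, the last 3 with overlapping intervals.

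The ratio to Ttr asks whether RNA of the set was spread in the proportions of the plexus. The core was chosen by a high share of Ttr, so the folds of far spots over the core are not independent of that choice. Kcnj13 came closest to the proportion of the core, with 0.950 UMIs per 1000 Ttr UMIs in the core and 1.14 in far spots in the trained-labelled section, 1.20-fold (0.710 to 1.94), and with 1.38 and 1.66 in the untrained-labelled section, 1.21-fold (1.03 to 1.41). Folr1 was 2.07-fold (1.40 to 3.01) and 2.06-fold (1.89 to 2.25) higher per Ttr UMI in far spots than in the core. Kl was 2.34-fold (1.97 to 2.77) and 1.36-fold (1.24 to 1.50) higher, and Clic6 3.20-fold (2.65 to 3.85) and 1.57-fold (1.45 to 1.70). Enpp2 was 5.27-fold (5.05 to 5.50) and 2.08-fold (2.04 to 2.12) higher. For Kl, Clic6 and Enpp2 the fold per Ttr UMI was larger in the trained-labelled section, and the intervals do not overlap. With a core of the same number of spots chosen by the reference list, without Ttr, the folds were 1.07 and 1.25 for Kcnj13, 1.70 (0.988 to 2.78) and 2.03 for Folr1, 2.41 and 1.37 for Kl, 2.86 and 1.53 for Clic6 and 5.70 and 2.12 for Enpp2.

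**Figure D3:**
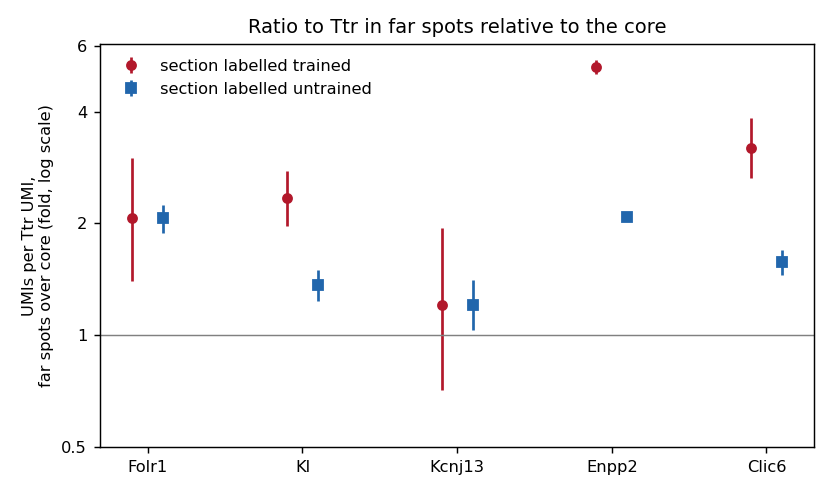
UMIs of Folr1, Kl, Kcnj13, Enpp2 and Clic6 per Ttr UMI in far spots, divided by the same ratio in the core (fold, log scale), for each section with 95% counting intervals, the core having been chosen by its Ttr. Kcnj13 lay near 1 in both sections, Folr1 near 2 in both, and Enpp2 at 5.27 in the trained-labelled section and 2.08 in the untrained-labelled section.

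Far from the core, Ttr was not even. Over bands of 16 array columns it was highest in the middle of the trained-labelled section, with 1539 CPM in columns 48 to 63 and 1625 CPM in columns 64 to 79 against 362 and 334 CPM in the outermost bands. Its level in the untrained-labelled section was higher on the side of low column numbers, with 2613, 3262, 3628 and 4354 CPM in the bands from column 0 to column 63 and 2435, 2144, 2005 and 1696 CPM in those from column 64 to column 127. Spots at the tissue edge, with fewer than 6 neighbours in tissue, had less of it than interior spots, 573 CPM (536 to 612) against 765 CPM in the trained-labelled section and 2336 CPM (2290 to 2383) against 2754 CPM in the untrained-labelled section. Ttr was also lower in deep spots. With far spots split into 5 groups of equal size by UMIs, the shallowest had 1094 and 3508 CPM and the deepest 481 and 2159 CPM, although the UMIs of Ttr per spot were 2.26 and 16.6 in the shallowest and 7.69 and 67.0 in the deepest. Enpp2 was also lower in CPM in the deepest spots than in the shallowest, with 122 CPM (115 to 129) against 246 CPM (220 to 275) in the trained-labelled section and 212 CPM (206 to 220) against 481 CPM (454 to 509) in the untrained-labelled section. Kl and Folr1 were lower in the deepest spots of the untrained-labelled section, at 9.66 CPM (8.22 to 11.3) against 18.8 CPM (13.8 to 25.0) and 10.3 CPM (8.78 to 11.9) against 30.4 CPM (23.9 to 38.0). In the trained-labelled section, where the shallowest spots held 14 Kl and 5 Folr1 UMIs, the intervals of both genes overlapped.

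Regions were set apart by lists of marker genes: for each list, the 100 far spots of at least 500 UMIs with the highest summed share of its genes were compared with the other far spots. These are ranges of a score and not cell types. The spots of the lists also differed in depth, and levels by list were not standardised for it. For Ttr the highest levels in the trained-labelled section were in the spots richest in the ependyma list (1316 CPM, 1205 to 1436), the hypothalamus list (1232 CPM) and the thalamus list (1121 CPM), and the lowest in those richest in the upper cortex list (318 CPM, 286 to 353). In the untrained-labelled section the spots of the medial habenula list led (4179 CPM, 4073 to 4288), followed by the ependyma list (3979 CPM), and the upper cortex list was again lowest (1898 CPM, 1841 to 1955). The spots of the hypothalamus list, at a median of 24 steps from the core in both sections, were above the other far spots for Ttr in the trained-labelled section (1.67-fold) and close to them in the untrained-labelled section (0.969-fold). Ependyma and hypothalamus shared 22 of their 100 spots in the trained-labelled section. Likeness between genes was ranked by the smaller of the Pearson r of both sections, so that a gene must follow in each. By this rule the genes whose counts per spot were most like those of Ttr across far spots were Gm5741, Tcf7l2 and Calb2, with Pearson r of 0.35, 0.30 and 0.31 over 3141 spots and 0.23, 0.23 and 0.22 over 2649 spots, values that share depth and library and are given as a description. Enpp2 stood above all 3 in the untrained-labelled section alone, with an r of 0.31.

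Peptide genes made in small nuclei give the spread of other RNAs that have a narrow source. Measured from its own 20 spots of highest CPM, Oxt (oxytocin) beyond 10 steps was 0.0361% (0.0334 to 0.0390%) of its top level in the trained-labelled section and 0.00938% (0.00681 to 0.0126%) in the untrained-labelled section. Avp (vasopressin) was 0.198% and 0.279%, Tac2 (neurokinin B) 0.642% and 0.894%, and Pmch (melanin-concentrating hormone) 0.187% in the untrained-labelled section, with too few UMIs in the trained-labelled section, as had Hcrt in both. Ttr measured in this way was 0.654% (0.647 to 0.660%) and 1.89% (1.88 to 1.89%), within the interval of Tac2 (0.574 to 0.715%) in the trained-labelled section and above each of these genes in the other, but spots beyond 10 steps then include other plexus patches. With far spots as defined above, which exclude every patch, Ttr was 0.292% and 0.981% of the level in its top 20 spots. Those far spots begin nearer than the spots beyond 10 steps used for the peptide genes. Their distance is also taken from every core spot, not from the top 20 spots alone. The values are therefore not ranked against those of Oxt, Avp, Tac2 and Pmch. Some of these genes have cells in more than 1 place, and how much of any far level came from such cells was not tested.

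The fourth question was where Enpp2 and Kl were expressed outside the plexus. Enpp2 followed the myelin list. In the 629 and 530 far spots with the highest share of the 9 myelin genes (20% of those with at least 500 UMIs) it reached 418 CPM (1182 UMIs) against 126 CPM (2577 UMIs) in the other far spots in the trained-labelled section, a log2 ratio of 1.73 (1.63 to 1.83). In the untrained-labelled section it was 493 CPM (2419 UMIs) against 264 CPM (9787 UMIs), a log2 ratio of 0.90 (0.83 to 0.96). With the myelin-rich spots set against the level of other far spots of the same depth group, over 5 groups of depth, the log2 ratio was 1.60 and 0.54. The difference in level was closer between the sections than the ratio, 292 and 228 CPM. Over 5 groups of far spots in order of myelin share, Enpp2 went from 108 to 103, 136, 180 and 419 CPM in the trained-labelled section and from 211 to 261, 285, 326 and 493 CPM in the untrained-labelled section. Median UMIs per spot fell along the same groups, from 8793 to 3975.5 and from 20675 to 8508.5. In the 100 spots richest in myelin it was 762 CPM (675 to 856) and 851 CPM (781 to 925), 5.01-fold and 3.02-fold above the other far spots.

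Ttr did not share this pattern. It was 594 CPM in the myelin-rich spots against 774 CPM in the others in the trained-labelled section, a log2 ratio of -0.38 (-0.46 to -0.31), and 2711 against 2713 CPM in the untrained-labelled section (-0.027 to 0.025 on the log2 scale). Among the genes most like Enpp2 across far spots were Cnp and Mal, which encode proteins of the myelin sheath, with r of 0.33 and 0.36 in the trained-labelled section and 0.36 and 0.33 in the untrained-labelled section. Over all spots, core included, the genes most like Enpp2 by the smaller r were Ecrg4, Trf and Ttr, with r of 0.39, 0.38 and 0.37 over 3958 spots and 0.61, 0.43 and 0.71 over 3624 spots, where Kl with 0.59 and Clic6 with 0.56 were above Trf. Ttr and Enpp2 had an r of -0.04 over the far spots of the trained-labelled section and 0.31 over those of the other. The lowest far levels of Enpp2 were in the spots of the dentate gyrus and hypothalamus lists, 76.7 and 91.5 CPM in the trained-labelled section and 210 and 204 CPM in the untrained-labelled section.

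Kl outside the plexus was highest in the spots richest in the CA1 list (Fibcd1, Pou3f1 and Wfs1) in the trained-labelled section. In the other, the spots of the ependyma, CA1 and thalamus lists had the highest levels, with intervals that overlap each other and those of further lists. In the CA1-rich spots it reached 57.4 CPM (42.2 to 76.4, 47 UMIs) in the trained-labelled section, against 5.89 CPM in the other far spots, a 9.82-fold difference with a pseudocount of 0.5 UMI. In the untrained-labelled section it reached 23.7 CPM (16.7 to 32.7, 37 UMIs) against 11.97 CPM, or 2.01-fold. The CA1-rich spots held 26.3% of all far Kl UMIs and 3.52% of all far UMIs in the trained-labelled section, and 7.12% and 3.72% in the untrained-labelled section. The UMIs came from 29 and 28 of the 100 spots, with at most 7 and 3 in a spot, at a median of 11 and 10.5 steps from the core. Thinned to 1000 UMIs, 4.84% and 2.63% of these spots and 0.641% and 1.28% of the other far spots kept a Kl UMI. The CA1 list itself was at similar levels in the chosen spots, 904 and 849 CPM.

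Kl was also above the other far spots in those of the dentate gyrus list in the trained-labelled section, 17.9 CPM (14 UMIs) or 2.51-fold, and at 14.8 CPM (41 UMIs) or 1.22-fold in the untrained-labelled section. The ependyma list gave 15.5 CPM (6 UMIs) and 25.9 CPM (24 UMIs), 2.21-fold and 2.18-fold. The thalamus list gave 8.29 CPM (5 UMIs) and 18.9 CPM (12.7 to 26.9, 30 UMIs), 1.18-fold and 1.58-fold. The meninges list gave 22.1 CPM (9 UMIs) or 3.12-fold in the trained-labelled section, and 9.72 CPM (10 UMIs) or 0.818-fold in the untrained-labelled section. In the deep cortex list there was no Kl UMI in the trained-labelled section, with an upper bound of 4.52 CPM against 7.98 CPM in the other far spots, and there were 12 UMIs (10.5 CPM) in the untrained-labelled section. Across far spots Ddn and Camk2b, genes of neurons, were among those most like Kl, with r from 0.084 to 0.10, too weak to be read as a pattern.

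**Figure D4:**
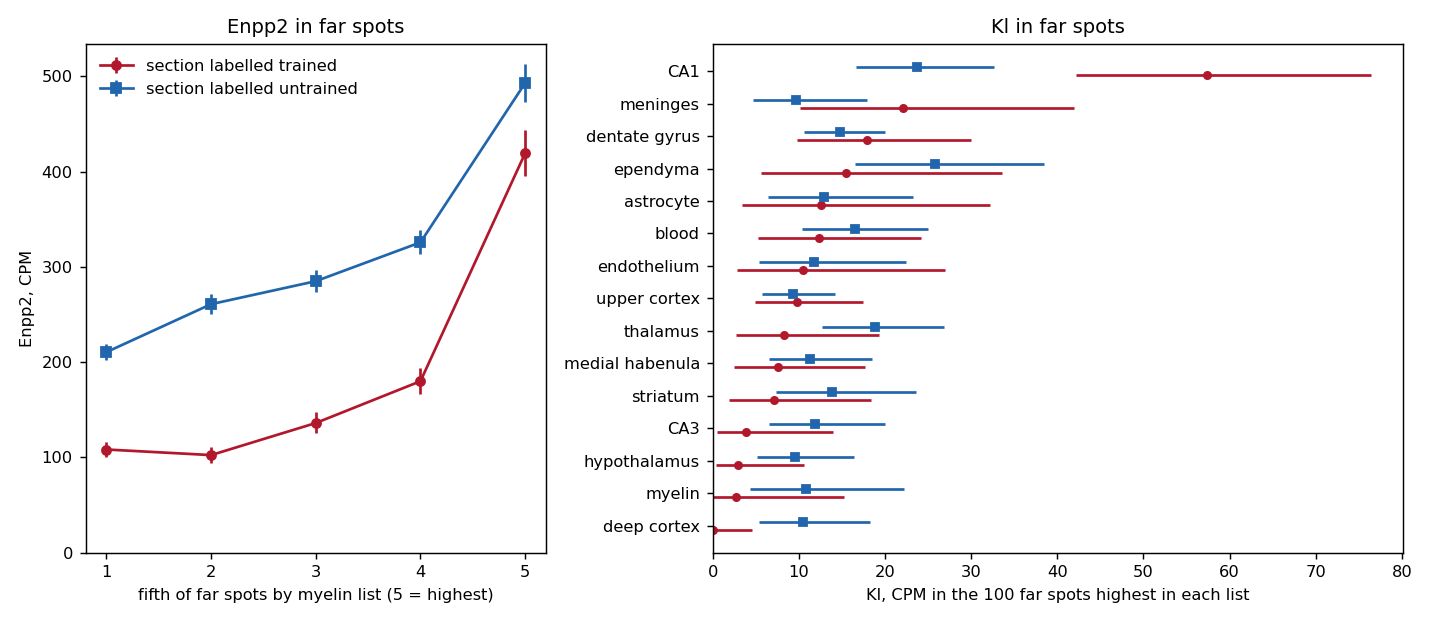
Left, Enpp2 (CPM) in 5 groups of far spots ranked by the myelin list, and right, Kl (CPM) in the 100 far spots highest in each region list, for both sections with 95% counting intervals. Enpp2 was highest in the top myelin group of both sections, at 419 and 493 CPM, and Kl was highest in the CA1 list in the trained-labelled section, at 57.4 CPM.

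Clic6 outside the plexus was highest in the spots of the ependyma and hypothalamus lists. It was 25.8 CPM (10 UMIs) and 25.1 CPM (17 UMIs) in the trained-labelled section, 3.92-fold and 3.87-fold above the other far spots, and 35.5 CPM (33 UMIs) and 36.1 CPM (49 UMIs) in the untrained-labelled section, 1.99-fold and 2.03-fold above them. In the trained-labelled section 100 CA1-rich spots held no Clic6 UMI, with an upper bound of 4.51 CPM, and in the untrained-labelled section they held 25. Folr1 far from the core was too sparse to place in the trained-labelled section, with 37 UMIs over 3332 spots and at most 3 in any list. In the untrained-labelled section it was highest in the ependyma list, 30.2 CPM (28 UMIs) or 2.00-fold above the other far spots. The dentate gyrus list, 8.28 CPM (23 UMIs), and the upper cortex list, 8.85 CPM (20 UMIs), were lowest. Median depth was 8122 UMIs in the ependyma spots and 23644 in the dentate gyrus spots. Folr1 was also lower in deep far spots of that section, and the part of depth was not tested. Kcnj13, with 20 and 189 far UMIs, was too sparse to place.

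Over all spots the genes most like Ttr by the smaller r of both sections were Ecrg4, which encodes a secreted peptide precursor, 2900040C04Rik and Clic6, with r of 0.55, 0.47 and 0.46 in the trained-labelled section and 0.73, 0.65 and 0.67 in the untrained-labelled section, where Enpp2 with 0.71 and Kl with 0.67 were also above 2900040C04Rik. By the same rule Ecrg4 and 2900040C04Rik were the closest to Kl (0.53 and 0.52, then 0.64 and 0.62) and to Clic6 (0.47 and 0.48, then 0.63 and 0.60). Ttr was closer than both to Kl and to Clic6 in the untrained-labelled section alone, with an r of 0.67 for each. Folr1 with 199 and Kcnj13 with 159 UMIs in the trained-labelled section missed the minimum of 200 and were not ranked. The authors' own score of spatial clustering, Moran's I, was highest for Ttr, 0.627 in the trained-labelled section and 0.555 in the untrained-labelled section, and lowest for Folr1, 0.181 and 0.357.

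Genes that act with the set were looked at next. Of 7 genes that handle thyroxine or retinol, the cargo of transthyretin, 3 of 5 with enough UMIs were at least 2-fold higher in the core than in far spots in the trained-labelled section and 4 of 6 in the untrained-labelled section, against 3.66% and 8.54% of all genes compared in the respective sections. The thyroid hormone transporter Slco1c1 was 3.66-fold and 5.67-fold higher, and the retinol-binding protein receptor Stra6 was 14.0-fold higher in the untrained-labelled section. Rbp4, which binds transthyretin, was not among them, at 18.5 against 25.1 CPM and 10.6 against 16.4 CPM. Dio2, the deiodinase that activates thyroxine, was lower in the core, at 8.06 against 15.9 CPM and 6.06 against 17.1 CPM.

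Of the ion and water transport genes of the plexus, 4 of 7 and 7 of 10 with enough UMIs were at least 2-fold higher in the core, against the same 3.66% and 8.54% of all genes, and 4 of the 10 were reference genes too. The anion exchanger Slc4a2 was 6.74-fold and 12.9-fold higher, the cotransporter Slc12a2 3.35-fold and 4.33-fold and the carbonic anhydrase Car14 4.09-fold and 6.48-fold. Atp1b1, a subunit of the sodium pump that neurons also use, was lower in the core, at 944 against 1607 CPM and 808 against 1496 CPM. Of the folate genes, none of 2 measured reached 2-fold in the trained-labelled section and 2 of 3 did in the untrained-labelled section, against 8.54% of all genes there, where the transporters Slc19a1 and Slc46a1 were 2.66-fold and 3.41-fold higher.

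Few partners of klotho and few genes that act on the product of autotaxin had enough UMIs, so their counts are descriptions. None of 3 measured klotho partners was 2-fold higher in the core of either section, where 3.66% and 8.54% of all genes were. Fgfr1, with which klotho forms the FGF23 receptor, was 57.2 against 32.6 CPM and 66.9 against 37.1 CPM, and Fgfr3 was lower in the core, at 31.4 against 89.0 CPM and 46.6 against 86.8 CPM. Fgf23 had no UMI. Among the receptors and phosphatases of lysophosphatidic acid, none of 3 was 2-fold higher in the trained-labelled section and 1 of 4, Plpp1 with 2.22-fold, in the untrained-labelled section, beside the same background. Lpar1, a receptor of that lipid, was 48.3 against 28.3 CPM and 40.2 against 28.2 CPM.

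The last question was how the set differed between the sections. Over whole sections all 6 genes were at least 2-fold lower in the trained-labelled section, as were 1.42% of 11460 genes. A gene entered with 400 UMIs over both sections, which Folr1 and Kcnj13 reached through the untrained-labelled section here and in the core, so these counts are descriptions. Ttr was 5341 CPM against 18051 CPM, a log2 ratio of -1.76 (-1.76 to -1.75). Folr1 was 6.74 CPM (199 UMIs) against 58.5 CPM (3453 UMIs), or -3.11 (-3.33 to -2.91), and Kcnj13 was 5.39 CPM (159 UMIs) against 25.6 CPM (1514 UMIs), or -2.25 (-2.50 to -2.01). Kl was 27.6 against 64.2 CPM (-1.22), Enpp2 359 against 1090 CPM (-1.60) and Clic6 21.5 against 84.7 CPM (-1.97). All 14 reference genes of the plexus were lower by 2-fold as well, with a median of -1.85. Many of them, such as Slc4a5 with 79 and 1025 UMIs, also met the minimum through the untrained-labelled section. Their count is therefore a description too. The untrained-labelled section also had 8.94% of its UMIs in core spots, against 4.20%, and fewer cells of a type and less RNA per cell cannot be told apart in these sums.

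Within the core, 4 of the 6 genes were at least 2-fold lower in the trained-labelled section, as were 3.73% of the 2226 genes with enough UMIs. That number depended on how the core was drawn and weighted: it was 3 with the core at 10000 CPM of Ttr, with a core from the reference list or with spots weighted equally, 2 with a core of 50 spots and 1, Folr1, at 50000 CPM. Folr1 stood lowest, at 105 against 471 CPM, a log2 ratio of -2.16 (-2.44 to -1.92), and 0.135% of the genes were lower. Clic6 with -1.25 (-1.41 to -1.10), Kcnj13 with -1.25 (-1.53 to -0.98) and Enpp2 with -1.05 (-1.10 to -1.01) followed. Ttr, which chose the core, was at -0.72 (-0.72 to -0.71), and Kl was at -0.33 (-0.47 to -0.20). The median was -1.15 over the 6 genes, -0.91 over the 13 reference genes with enough UMIs, of which 6 were 2-fold lower, and 0.13 over all genes. Reference genes such as Cldn2, with 60 and 665 UMIs, met the minimum through the untrained-labelled section, so their count is a description. The cores were not alike in make-up: the myelin list was 9402 against 6468 CPM and the striatum list 985 against 335 CPM, both higher in the trained-labelled section, and the ependyma list was 565 against 946 CPM. Their part in the differences was not tested. With the core set at 50000 CPM of Ttr, the ratio of Folr1 was -1.91, those of Clic6, Kcnj13 and Enpp2 were -0.94, -0.92 and -0.71, under 2-fold, and that of Kl was 0.073 (-0.067 to 0.21), an interval that includes 0. Leaving Ttr out of the totals shifted every core ratio by -0.11.

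In far spots, 4 of the 6 genes were at least 2-fold lower in the trained-labelled section, and so were 0.581% of the 10670 genes that had 400 UMIs over both sections. Kcnj13, with 20 and 189 UMIs, was below that minimum, and Folr1, with 37 and 656 UMIs, met it only through the section in which it was higher, so the count is a description. Folr1 was 1.59 against 15.7 CPM, a log2 ratio of -3.28 (-3.82 to -2.82), Ttr 752 against 2712 CPM, or -1.85 (-1.87 to -1.83), and Clic6 7.19 against 18.5 CPM, or -1.36 (-1.62 to -1.12). Enpp2, at 162 against 291 CPM, was at -0.85 (-0.90 to -0.80), and Kl, at 7.70 against 12.4 CPM, was at -0.69 (-0.94 to -0.44). Kcnj13, at 0.861 against 4.51 CPM, was at -2.36 (-3.13 to -1.72). The median over all genes was 0.079.

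**Figure D5:**
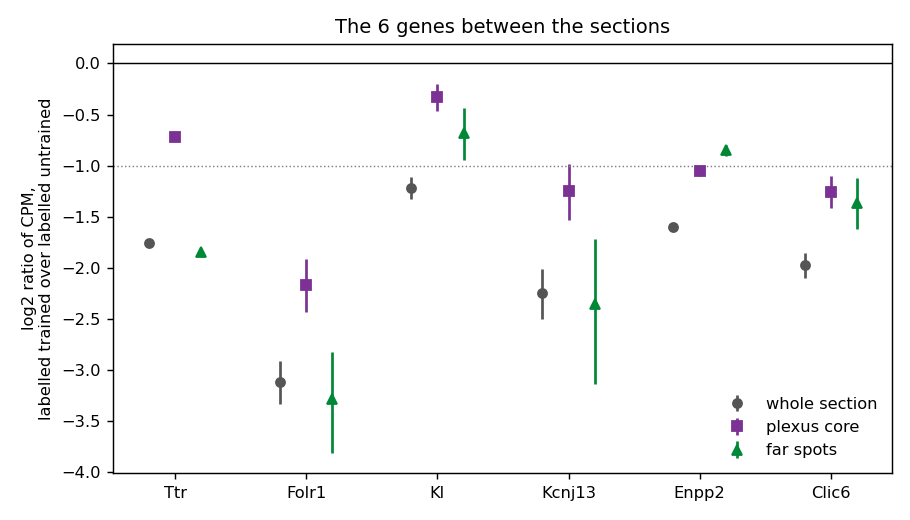
Log2 ratio of CPM (trained-labelled over untrained-labelled section), for the 6 genes in the whole section, the plexus core and far spots, with 95% counting intervals and a dotted line at a 2-fold lower level. All points lie below 0, with Folr1 lowest in each of the 3 places and Kl highest.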

How the data were processed

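Coronal sections of 1 trained and 1 untrained mouse were profiled by Visium, and each forms a group of 1. The authors trimmed reads with TrimGalore and counted UMIs with Space Ranger 2.0.0 against the 10x Genomics mouse mm10 reference, per the submitters' processing notes and the study's methods. They deposited UMI counts per gene and spot for spots under tissue, spot positions, and a table of counts and Moran's I, a score of spatial clustering, per gene. The deposited gene totals equalled the sums of the matrices for all 20513 and 21498 genes listed. The sections share 3448 spot barcodes, which belong to the array design.

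Levels are pooled UMIs divided by all UMIs of the spots, times 1000000 (CPM), with exact Poisson intervals. Shares have exact Clopper-Pearson intervals, and ratios have exact conditional binomial intervals with a pseudocount of 0.5 UMI for the estimate. Log2 ratios over all genes used genes with at least 200 UMIs in a section, or 400 over both. Named genes were the 6 genes, the 3 genes most like each by Pearson r of log(1 + UMIs per 10000), and the genes of fixed lists; some of these are not reported here. The genes and lists were chosen with earlier results of these data known. Of 32285 gene IDs, 32158 matched the GENCODE annotation. The ratio code was tested on simulated counts, the distance code against a direct search over grid neighbours, and the thinning code against random draws from real counts. Python 3.11.15, numpy 2.4.6, scipy 1.17.1 and pandas 2.3.3 were used. Alternatives for the core, distance, scaling and depth are given in the closing section.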

Additional observations from a re-analysis of the deposited data

How the results depend on the processing

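No paired analysis was possible because each label has 1 section. Of 398 values under alternatives, 254 moved by less than their counting interval and 142 by more without changing sign. The log2 ratio of Kl between the cores was 0.073 (-0.067 to 0.21) with the core at 50000 CPM of Ttr and 0.0077 (-0.14 to 0.15) with a core of 50 spots, so that no direction was resolved; the cause was not tested. Of the 6 genes, 4 were at least 2-fold lower in the trained-labelled core, 3 with the core at 10000 CPM, from the reference list or with spots weighted equally, 2 with 50 spots and 1 (Folr1) at 50000 CPM. The far share of Ttr (trained-labelled, then untrained-labelled section) was 9.87% and 8.21% with the core at 10000 CPM, 11.5% and 11.3% at 50000 CPM, 12.4% and 14.1% with 50 spots, 7.24% and 8.25% with a core from the reference list, 12.6% and 12.6% with far spots from more than 3 steps and 7.78% and 6.78% from more than 10. Ttr at 1 step was in the same order 3627 and 5996, 19276 and 22602, 26177 and 116255, and 10196 and 12786 CPM, and 8082 and 12179 CPM without mitochondrially encoded genes in the totals. The log2 ratio of Ttr between far spots was -1.81 with the core at 10000 CPM, -1.93 with 50 spots, -1.91 with the reference list and -1.93 without mitochondrial genes. Between the cores it was -0.65 at 10000 CPM, -0.38 at 50000 CPM, -0.49 with 50 spots, -0.61 with the reference list, -0.74 without mitochondrial genes, -0.83 without Ttr in the totals and -0.51 with spots weighted equally. Kl in far spots was 6.53 CPM beyond 10 steps in the trained-labelled section, and 14.0 CPM with 50 core spots and 14.9 CPM without mitochondrial genes in the other. The log2 ratio of Enpp2 in myelin-rich over other far spots was 0.98 beyond 3 steps in the untrained-labelled section, 1.58 and 0.69 beyond 10 steps, 2.10 and 1.23 with the top 10% of spots, and 1.60 and 0.54 when standardised over 5 depth groups. This last alternative, and the folds per Ttr UMI with the reference-list core, were chosen after seeing the data. With spots thinned to 1000 UMIs, 50.4% and 90.2% of far spots kept a Ttr UMI. Folr1 and Kcnj13 had the fewest far UMIs of the 6 genes, 37 and 20 in the trained-labelled section.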
